A study of Mus musculus with 13 samples.

Results

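The 10 genes described here encode subunits of DREAM, the complex that represses cell cycle genes in resting cells, and of its core, MuvB. They are E2f4 and E2f5, which encode repressor E2F transcription factors, Tfdp1 and Tfdp2, their DP dimerisation partners, Rbl1 and Rbl2, the pocket proteins p107 and p130, and Lin9, Lin37, Lin52 and Lin54 of MuvB. The genes were chosen by name, out of 21887 protein-coding genes. Their data are all peaks of 12 libraries that overlap the gene span in the mouse build mm10 or the 10 kb on each side, in all 381 peaks in 707423 bases of windows. Peaks that overlap by at least 1 bp, in a chain over all libraries, were joined into a site, which gave 72 sites in the windows of 114651 in the genome.

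In resting cells a pocket protein bridges an E2F-DP dimer, which reads E2F elements in DNA, to MuvB, whose LIN54 subunit reads the cell cycle genes homology region (CHR). LIN52 holds the pocket protein on MuvB. On return to the cell cycle the pocket protein is released and MuvB joins B-MYB and later FOXM1, which activate mitotic genes. STAG2 and STAG1 are alternative subunits of cohesin, the ring that extrudes DNA loops, and CTCF is the zinc finger protein that halts it. DREAM itself was not mapped in these libraries, so the values below are on cohesin and CTCF at the genes that encode DREAM, not on binding by DREAM.

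The cells were NU1, a wild-type mouse urothelial line that became immortal on its own during passaging. Quiescent cells were grown to confluence in the complete medium, which holds EGF and serum, and then kept in it with rosiglitazone at 1 uM, an agonist of PPAR gamma, and erlotinib at 0.5 uM, which blocks the EGF receptor kinase. Proliferating cells had the complete medium without these agents. Chromatin immunoprecipitation with sequencing (ChIP-seq) was done with 25 ug of antibody against STAG2, STAG1 or CTCF in each state, with 2 biological replicates for each of the 6 groups. Since NU1 is a single line and confluence came together with both agents, the parts of these in any difference between states cannot be told apart. A ChIP library averages over many cells, so binding in fewer cells and weaker binding in each cell cannot be told apart either.

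The lists held between 34281 and 71757 peaks, and the longest was CTCF quiescent replicate 2. The median peak width lay between 526 and 564 bp. The lists hold no read totals, so depth is unknown and no interval from counts is given. Peaks in the 10 windows made up 0.0521% to 0.0836% of a list. Fold enrichment is the authors' value for the summit of a peak over the control; it is used to describe peaks and to rank them within a library, as a percentile in which the strongest peak of the list is near 100. Binding at markers of urothelium does not report expression and so does not check the labelled cell type.

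Most of the genes had cohesin and CTCF at their start in both states. A gene was called occupied in a group when peaks of both libraries lay within 1 kb of a start annotated in RefSeq or, for E2f4, E2f5 and Lin9, of either end of the gene span. By this rule 8 of the 10 genes were occupied in each of the 6 groups, and the same 8 had a peak in all 12 libraries. E2f4 met the rule for CTCF in quiescent cells only through its high-coordinate end, at a site shared with Elmo3. There CTCF quiescent replicate 1 had a fold of 7.2, and it had no peak within 1 kb of the low-coordinate end. Among all protein-coding genes 55.0% were occupied by STAG2 in quiescent and 55.0% in proliferating cells. The share was 47.1% for STAG1 in quiescent and 48.9% in proliferating cells, and 44.9% for CTCF in quiescent and 49.1% in proliferating cells. A peak in all 12 libraries was found at 35.7% of genes. The exceptions were Tfdp2, with no peak in any library at the 2 starts listed for it, and Lin37, with 1 weak peak in 1 library. Both starts listed for Tfdp2 lie inside its span, so this rule did not read the upstream end of that span. With span ends used for every gene Tfdp2 joined the occupied genes through the upstream end of its span. This made 9 of 10 in all 12 libraries, against 36.3% of all genes.

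At the median, the 8 occupied starts ranked below other starts of their kind. The mean percentile of the strongest STAG2 peak had a median of 67.1 over these 8 genes, against 72.6 over the 7812 genes with a start peak in all 12 libraries. For STAG1 the median was 56.2 over the 8 genes and 61.4 over the 7812, and for CTCF it was 51.8 over the 8 and 70.6 over the 7812. When each list was reduced to its 20000 strongest peaks, STAG2 still occupied 8 of the genes in quiescent cells and 6 in proliferating cells, with Tfdp1 and Lin9 missing there (all genes, 34.7% in quiescent and 28.2% in proliferating cells). STAG1 then occupied 5 in each state (24.0% and 22.5%). CTCF occupied 1 in quiescent cells, E2f5, and 3 in proliferating cells, E2f5, Rbl1 and Lin54 (18.4% and 21.3%).

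**Figure D1:**
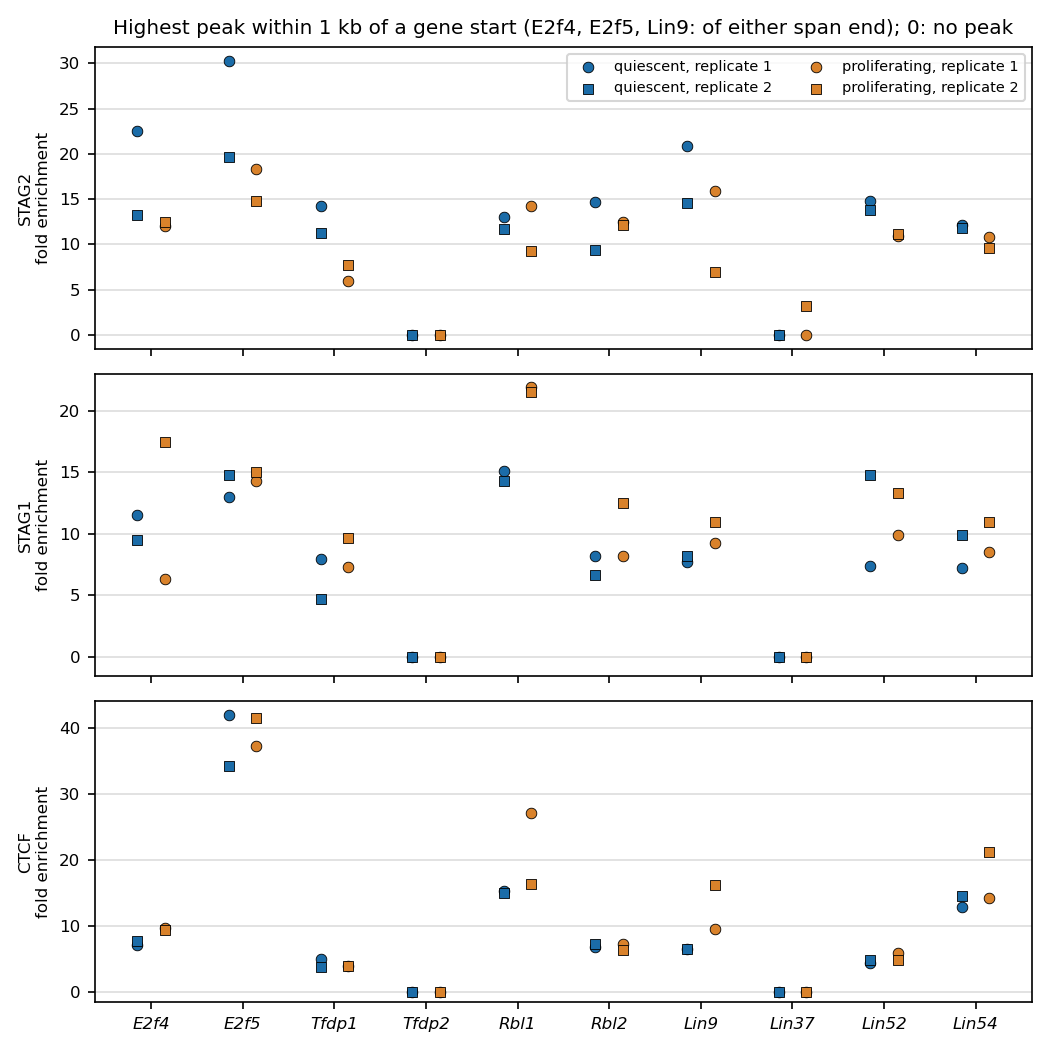
Fold enrichment (y axis, linear) of the highest peak within 1 kb of the start of each gene (x axis), one panel per antibody, with a point for each library of quiescent (blue, left) and proliferating (orange, right) cells; 0 means no peak. E2f4, E2f5 and Lin9 were read at either end of their spans, and Tfdp2 at its listed starts, not at the upstream end of its span. CTCF spans 34.3 to 42.0 at E2f5 but only 3.9 to 5.0 at Tfdp1, while Tfdp2 and Lin37 lie at or near 0.

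Among the E2F genes, E2f4 had STAG2 and CTCF at different points of the low-coordinate end of its span on chromosome 8. The site there, chr8:105297381-105299764, was called in all 12 libraries. The STAG2 fold was 22.5 and 13.3 in quiescent cells and 12.0 and 12.5 in proliferating cells, with summits between 116 and 214 bp inside the gene. The STAG1 fold was 11.5 and 9.5 in quiescent cells and 6.3 and 17.5 in proliferating cells, so the states overlapped. The CTCF peak with the highest fold of the site had 20.0 and 18.0 in quiescent cells and 9.0 and 16.5 in proliferating cells. In all 4 CTCF libraries that summit lay between 1791 and 1820 bp inside the gene, with a median distance of 1651 bp from the STAG2 summit. A second CTCF peak lay near the end of the span itself, with a fold of 6.0 in quiescent replicate 2, no peak in quiescent replicate 1, and 8.7 and 9.5 in the proliferating libraries.

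Between these points of E2f4 lay a minor cohesin peak that only proliferating libraries had. It was absent from all 4 quiescent cohesin libraries. In proliferating cells its STAG2 fold was 4.5 and 7.5 and its STAG1 fold 4.5 and 4.5, with summits from 1125 to 1408 bp inside the gene. Because it is chained to the peaks on either side, it does not count as a site of its own when peaks are joined over all libraries. The highest ranked site of the E2f4 window lay outside the gene, at chr8:105290767-105292924 within Exoc3l, which encodes an exocyst complex-like protein. CTCF had 37.4 and 33.8 there in quiescent cells and 37.6 and 32.4 in proliferating cells, and STAG2 had 19.0 and 13.5 in quiescent cells and 18.4 and 16.5 in proliferating cells. A neighbouring site on Exoc3l and 4931428F04Rik and a weaker one at the high-coordinate end, shared with Elmo3, were also called in all 12 libraries. Near that high-coordinate end, at chr8:105304645-105305075, only STAG2 proliferating replicate 2 had a further peak, with a fold of 5.0.

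**Figure D2:**
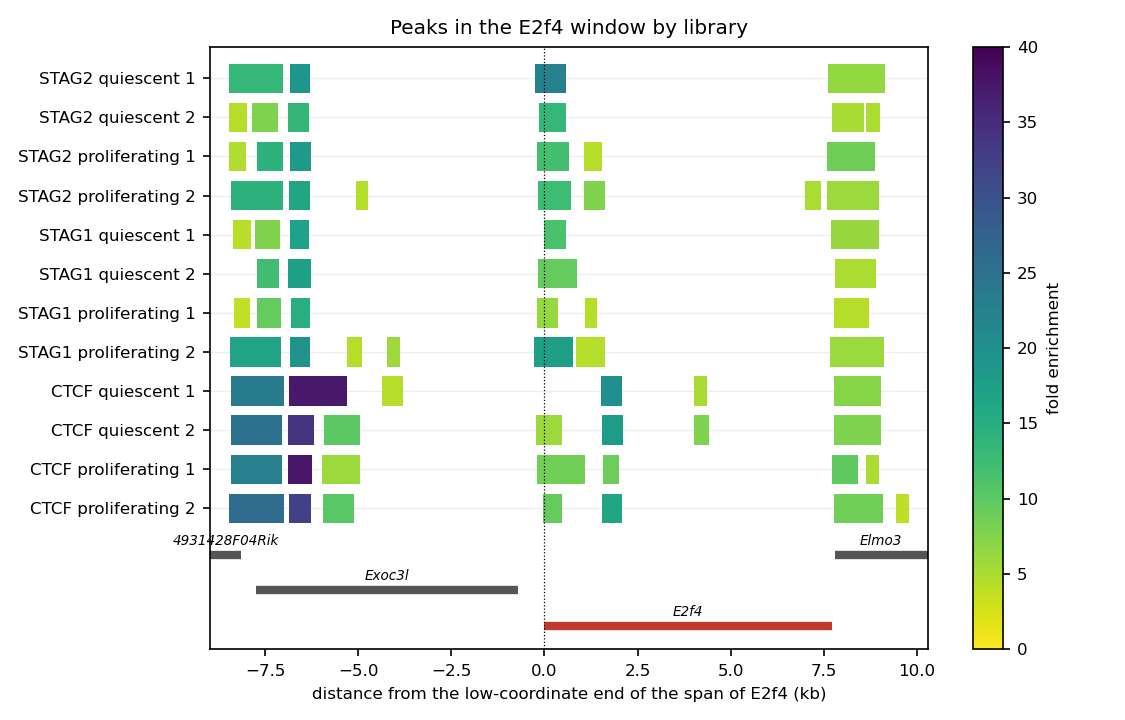
Peaks of each library (rows, quiescent above proliferating for each antibody) in the E2f4 window, by distance from the low-coordinate end of the gene span (x axis, kb) and coloured by fold enrichment; bars below mark gene spans. The cohesin peaks sit at 0, the CTCF peak in all 4 CTCF libraries about 1791 to 1820 bp to the right, and the minor cohesin peak between them is present in the 4 proliferating cohesin libraries and in no quiescent one.

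E2f5 had the highest ranked STAG2 and CTCF start peaks of the 10 genes, with mean percentiles of 83.8 and 93.3. Its site at the low-coordinate end, chr3:14578298-14579359, was called in all 12 libraries. The CTCF fold was 42.0 and 34.3 in quiescent cells and 37.3 and 41.5 in proliferating cells, and the STAG1 fold was 13.0 and 14.8 in quiescent cells and 14.3 and 15.0 in proliferating cells, so the states overlapped for both proteins. The STAG2 fold was 30.3 and 19.7 in quiescent cells and 18.3 and 14.8 in proliferating cells, with both quiescent libraries above both proliferating ones. A site beyond the other end, chr3:14610939-14612020 at Rbis, was the highest ranked of all 72 with a mean percentile of 94.4 over the 12 libraries. The number of peaks in the E2f5 window was 2 in each of the 8 cohesin libraries and 3 in each CTCF library.

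Of the DP genes, Tfdp1 had cohesin at its start with low-ranked CTCF. The site chr8:13338179-13339702 was called in all 12 libraries. The STAG2 fold was 14.3 and 11.3 in quiescent cells and 6.0 and 7.7 in proliferating cells, without overlap. The STAG1 fold was 8.0 and 4.7 in quiescent cells and 7.3 and 9.7 in proliferating cells, with overlap. The CTCF fold was 5.0 and 3.9 in quiescent cells and 4.0 and 4.0 in proliferating cells, with percentiles from 2.5 to 20.3 in those lists. CTCF was instead strongest inside the gene, at chr8:13356028-13357207, with a fold of 19.4 and 24.6 in quiescent cells and 22.4 and 19.0 in proliferating cells.

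Tfdp2, the longest of the genes with a span of 127401 bp, had its site of all 12 libraries at the low-coordinate end of its span and not at its annotated starts. The gene lies on the plus strand, so this is the upstream end of the span, which is not among the starts listed for it. No library had a peak within 1 kb of its annotated starts at 96258705 and 96259248 on chromosome 9. At the low-coordinate end of the span, chr9:96195669-96197336, all 12 libraries had one. There the STAG2 fold was 22.8 and 9.4 in quiescent cells and 13.7 and 12.7 in proliferating cells, and the CTCF fold was 15.3 and 14.3 in quiescent cells and 23.7 and 23.0 in proliferating cells. Within the gene CTCF had a site in all 4 libraries with a fold of 25.9 and 37.9 in quiescent cells and 16.5 and 16.0 in proliferating cells, joined by a cohesin peak in only STAG2 proliferating replicate 1. Of its 10 sites, 7 came from a single library, each time CTCF quiescent replicate 2.

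The pocket protein genes had 1 strong site each at their start. At Rbl1, chr2:157203737-157205154, STAG2 ranked lowest of the 3 proteins, with a mean percentile of 65.9, against 78.5 for STAG1 and 77.7 for CTCF. The STAG2 fold was 13.0 and 11.7 in quiescent cells and 14.3 and 9.3 in proliferating cells. STAG1 had 15.1 and 14.3 in quiescent cells and 21.9 and 21.5 in proliferating cells, and CTCF had 15.3 and 15.0 in quiescent cells and 27.2 and 16.4 in proliferating cells. Both quiescent libraries lay below both proliferating ones for STAG1 and CTCF, and overlapped them for STAG2. At Rbl2, chr8:91069939-91070766, the STAG2 fold was 14.7 and 9.4 in quiescent cells and 12.5 and 12.1 in proliferating cells, with overlap. STAG1 had 8.2 and 6.7 in quiescent cells and 8.2 and 12.5 in proliferating cells. CTCF was lower in rank there, with a fold of 6.9 and 7.3 in quiescent cells and 7.3 and 6.4 in proliferating cells. The site with the highest mean percentile in the Rbl2 window, 76.0, lay in the flank at Aktip, which encodes a protein of vesicle trafficking, and was called in all 12 libraries.

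Of the MuvB genes, Lin9, Lin52 and Lin54 were occupied at the start and Lin37 was not. Lin9, a scaffold subunit, had its site at chr1:180640551-180642030. The STAG2 fold was 20.9 and 14.6 in quiescent cells and 15.9 and 7.0 in proliferating cells, and the CTCF fold was 6.6 and 6.6 in quiescent cells and 9.6 and 16.3 in proliferating cells. STAG1 had 7.7 and 8.2 in quiescent cells and 9.3 and 11.0 in proliferating cells. The states overlapped for STAG2, and for STAG1 and CTCF both quiescent libraries lay below both proliferating ones. Lin52 shared its site, chr12:84450393-84451968, with Aldh6a1, which encodes a mitochondrial dehydrogenase, and the summit was 563 bp upstream of the Lin52 start. STAG2 had 14.8 and 13.8 there in quiescent cells and 10.9 and 11.2 in proliferating cells, without overlap, while CTCF had 4.4 and 4.9 in quiescent cells and 6.0 and 4.9 in proliferating cells. STAG1 had 7.4 and 14.8 there in quiescent cells and 9.9 and 13.3 in proliferating cells. The mean percentile at Lin52 was 68.4 for STAG2 and 16.4 for CTCF.

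Lin54, whose product is the DNA-binding subunit of MuvB, has annotated starts at 100498573 and 100500639 on chromosome 5, and each had a site of its own in all 12 libraries. At the outer one, chr5:100499671-100501150, the STAG2 fold was 11.8 and 11.8 in quiescent cells and 10.8 and 9.1 in proliferating cells. The STAG1 fold was 7.2 and 9.9 in quiescent cells and 8.5 and 11.0 in proliferating cells, with overlap. The CTCF fold there was 12.9 and 14.6 in quiescent cells and 14.3 and 21.2 in proliferating cells. The inner one, chr5:100498077-100499061, had a STAG2 fold of 12.2 and 10.5 in quiescent cells and 9.6 and 9.6 in proliferating cells, and CTCF of 5.0 and 6.7 in quiescent cells and 7.1 and 8.4 in proliferating cells. Its STAG1 fold was 5.5 and 5.9 in quiescent cells and 5.7 and 7.5 in proliferating cells. The STAG2 folds of the inner and the outer start overlapped, while STAG1 and CTCF were each lower at the inner start in all 4 of their libraries. Of the 10 sites in the window, 7 had CTCF and neither cohesin subunit.

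The Lin37 window held STAG1 without STAG2. At the Lin37 start the sole peak was STAG2 proliferating replicate 2, with a fold of 3.2. At chr7:30562851-30563694, 3530 bp upstream, the STAG1 fold was 16.3 and 20.9 in quiescent cells and 13.6 and 23.7 in proliferating cells, and no STAG2 or CTCF library had a peak. The states overlapped. That site lies at the starts of Psenen, which encodes a subunit of gamma-secretase, and U2af1l4, which encodes a splicing factor related to U2AF. Sites called in all 4 STAG1 libraries and in no STAG2 or CTCF library numbered 30 in the genome, 0.0262% of all sites. Among them the site upstream of Lin37 had the highest mean percentile over the 4 STAG1 libraries, 78.5. STAG1 also had peaks in all 4 libraries 1575 bp inside Lin37, with a fold of 5.6 and 5.2 in quiescent cells and 5.2 and 8.2 in proliferating cells, where STAG2 had a peak in 1 library of each state. Over all 12 libraries, with 0 where a library had no peak, the highest mean percentile in the Lin37 window was 44.9. That site lay at Hspb6 and was called in all 12 libraries. By the same measure the site at Psenen and U2af1l4 had 26.2.

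**Figure D3:**
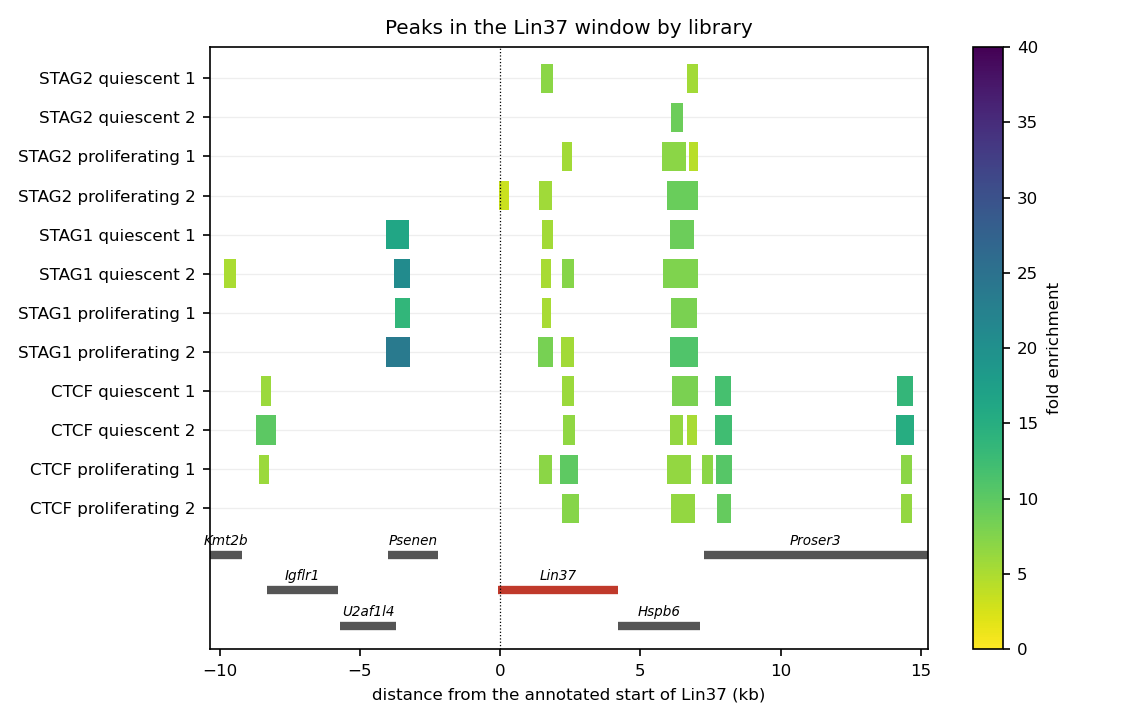
Peaks of each library (rows, quiescent above proliferating for each antibody) in the Lin37 window, by distance from the annotated start in the direction of transcription (x axis, kb) and coloured by fold enrichment; bars below mark gene spans. The 4 STAG1 libraries have a peak 3530 bp upstream at Psenen and U2af1l4, with folds of 13.6 to 23.7, where no STAG2 or CTCF library has one.

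Sequences are shown for starts on which the values above turn: 5 occupied ones, the nearly empty Lin37 start, and the U2af1l4 start under the peaks of STAG1 alone. Each is the stretch from 250 bases before to 50 bases after the start in RefSeq on GRCm38.p6, which is mm10, written 5′ to 3′ along the strand named. Capitals mark matches on either strand to the CHR (TTTGAA or TTCGAA), to an E2F element (TTTCCCGC, TTTCGCGC, TTTGCCGC or TTTGGCGC) or to the core of the CTCF motif (AGGNGGC).
Tfdp1 (chr8:13338501-13338800, plus strand): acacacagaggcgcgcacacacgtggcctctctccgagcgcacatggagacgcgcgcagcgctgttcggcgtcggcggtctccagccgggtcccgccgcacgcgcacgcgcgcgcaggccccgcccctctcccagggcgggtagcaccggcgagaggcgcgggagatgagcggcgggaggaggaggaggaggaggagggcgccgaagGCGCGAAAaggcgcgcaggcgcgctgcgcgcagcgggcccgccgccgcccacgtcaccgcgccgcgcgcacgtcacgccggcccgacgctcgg
Rbl1 (chr2:157204485-157204784, minus strand): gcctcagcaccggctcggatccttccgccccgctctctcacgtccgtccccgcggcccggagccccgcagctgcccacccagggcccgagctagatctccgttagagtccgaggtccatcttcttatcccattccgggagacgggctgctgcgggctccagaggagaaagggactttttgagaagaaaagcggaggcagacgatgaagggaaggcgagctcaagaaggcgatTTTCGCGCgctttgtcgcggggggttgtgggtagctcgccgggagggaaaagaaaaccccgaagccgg
Rbl2 (chr8:91069807-91070106, plus strand): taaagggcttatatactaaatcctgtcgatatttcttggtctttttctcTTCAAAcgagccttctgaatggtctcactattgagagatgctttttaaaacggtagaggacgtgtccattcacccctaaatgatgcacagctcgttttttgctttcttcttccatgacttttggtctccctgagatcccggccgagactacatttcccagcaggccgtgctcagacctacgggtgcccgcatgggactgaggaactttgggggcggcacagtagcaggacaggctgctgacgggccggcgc
Lin52 (chr12:84451258-84451557, plus strand): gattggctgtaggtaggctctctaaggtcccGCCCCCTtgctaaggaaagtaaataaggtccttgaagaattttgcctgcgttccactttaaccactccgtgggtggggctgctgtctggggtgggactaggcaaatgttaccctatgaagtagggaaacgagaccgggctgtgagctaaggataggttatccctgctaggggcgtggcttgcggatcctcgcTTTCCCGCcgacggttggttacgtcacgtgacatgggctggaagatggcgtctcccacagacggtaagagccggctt
Lin54 (chr5:100500590-100500889, minus strand): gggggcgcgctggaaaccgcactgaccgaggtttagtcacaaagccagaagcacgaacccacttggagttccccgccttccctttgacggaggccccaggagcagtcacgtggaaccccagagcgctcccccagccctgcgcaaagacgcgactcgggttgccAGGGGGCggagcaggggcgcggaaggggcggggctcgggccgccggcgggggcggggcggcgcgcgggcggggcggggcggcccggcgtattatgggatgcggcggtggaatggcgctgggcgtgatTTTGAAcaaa
Lin37 (chr7:30559597-30559896, minus strand): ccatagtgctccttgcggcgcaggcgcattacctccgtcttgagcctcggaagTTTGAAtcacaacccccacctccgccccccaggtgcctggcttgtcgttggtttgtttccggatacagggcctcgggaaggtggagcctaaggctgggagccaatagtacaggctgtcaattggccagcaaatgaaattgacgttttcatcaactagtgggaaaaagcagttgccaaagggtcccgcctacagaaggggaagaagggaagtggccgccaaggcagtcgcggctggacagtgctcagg
U2af1l4 (chr7:30563090-30563389, plus strand): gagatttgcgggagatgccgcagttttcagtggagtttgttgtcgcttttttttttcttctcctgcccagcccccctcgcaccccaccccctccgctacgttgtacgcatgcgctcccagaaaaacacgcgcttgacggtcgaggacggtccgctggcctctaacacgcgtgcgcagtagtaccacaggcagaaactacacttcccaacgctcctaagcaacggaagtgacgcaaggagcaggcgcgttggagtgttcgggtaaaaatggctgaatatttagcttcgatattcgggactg
The table holds 10 such windows for 7 of the genes. An E2F element was found in 4 of the 10 windows, at Tfdp1, Rbl1 and Lin52, against 2.85% of all 21263 windows. The 2 Tfdp1 windows overlap and hold the same element, so the 4 windows hold 3 elements. The element stood 43 bases before the first Tfdp1 start, 18 before the Rbl1 start and 27 before the Lin52 start. A CHR match was found in 4 of the 10 windows, at Rbl2, Lin37 and Lin54, against 17.6% of all windows. The CTCF core was found in 3, at Tfdp2, Lin52 and Lin54, against 33.6%. No matches overlapped each other. The CTCF core stood in the windows of the outer Lin54 start, with CTCF folds up to 21.2, and the Lin52 start, with at most 6.0. It also stood in a Tfdp2 window, where no library had a peak. The Rbl1 window, with CTCF folds up to 27.2 at its start, did not hold it. The CTCF summits with these highest folds lay outside the windows searched, so the letters under them were not examined. A match is a description of these letters, not a shown binding site.

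Away from the starts the windows held mostly CTCF. Of the 72 sites, 36 had CTCF and neither cohesin subunit in any library, 50%, against 35.4% of all sites. Without CTCF quiescent replicate 2, the longest list, they were 23 of 59 sites, 39.0%, against 27.5%. All 3 proteins were found at 23 sites, 31.9%, against 31.2%, and 16 sites were in all 12 libraries, 22.2%, against 15.9%. Of the 13 sites at a start or span end, 11 were in all 12 libraries and 0 had CTCF alone; over all genes 39.8% and 11.9% of such sites did. Of the 38 sites elsewhere in the gene spans, 0 were in all 12 libraries and 26 had CTCF alone, 68.4%, against 9.89% and 41.5% over all genes. Of these 26, 11 came from CTCF quiescent replicate 2 alone, and without that library 15 of 27 such sites had CTCF alone, 55.6%, against 33.1%. Of the 21 sites in the flanks, 5 were in all 12 libraries and 10 had CTCF alone, against 18.8% and 36.8%. Exons and introns were not analysed here.

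**Figure D4:**
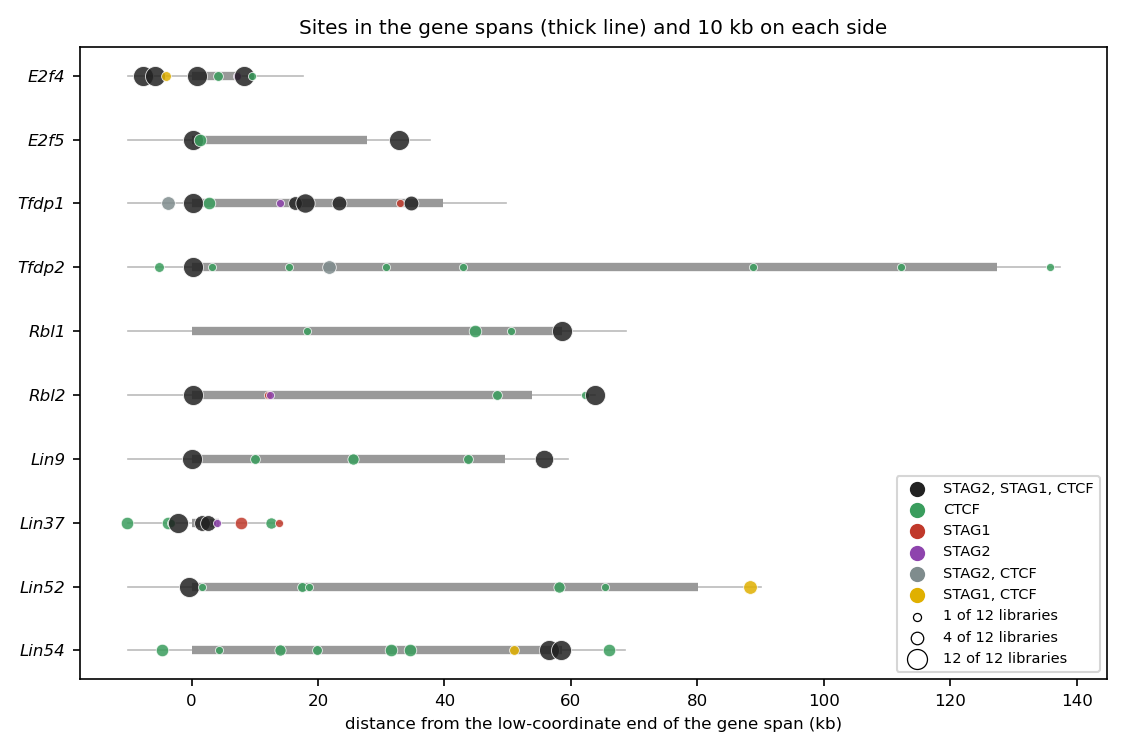
The 72 sites by distance from the low-coordinate end of each gene span (x axis, kb), coloured by the proteins found there in any library and sized by the number of libraries; thick lines are gene spans and thin lines the 10 kb flanks. Sites in all 12 libraries (large, black) lie at starts, span ends or flanks, and the 26 sites within spans that have CTCF alone (green) are small or medium.

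With complete peak lists, most cohesin sites in these windows had CTCF. A site counted as with CTCF when both CTCF libraries of the same state had a peak there. Of the STAG2 sites found in both libraries, 18 of 19 had CTCF in quiescent cells and 18 of 20 in proliferating cells, against 74.2% and 71.9% of all STAG2 sites. Of the STAG1 sites, 16 of 18 had CTCF in quiescent cells and 17 of 19 in proliferating cells, against 81.3% and 79.7%. Sites with no CTCF peak in that state were 1 of 19 for STAG2 in quiescent cells and 1 of 20 in proliferating cells, both in Tfdp1, against 15.6% and 18.3%. For STAG1 they were 2 of 18 in quiescent cells and 1 of 19 in proliferating cells, all in the Lin37 window, against 8.96% and 10.7%. With the 20000 strongest peaks of each list this did not hold for STAG2 in quiescent cells, where 4 sites had CTCF and 6 had no CTCF peak. STAG1 then had 5 with and 4 without in quiescent cells, and in proliferating cells STAG2 had 8 with and 4 without and STAG1 7 with and 2 without. Leaving out a library loosens the rule, since the other library then stands for its group. In quiescent cells, with complete lists, the STAG2 count without CTCF was 2 without STAG2 quiescent replicate 2. In proliferating cells it was 4 without STAG2 proliferating replicate 1, and 2 without STAG2 proliferating replicate 2 or CTCF proliferating replicate 1, while the STAG1 count was 5 without STAG1 proliferating replicate 1 and 2 without CTCF proliferating replicate 1.

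Of the 36 sites with a cohesin peak in any library, 23 had both STAG2 and STAG1, 63.9%, against 59.6% of all such sites, and 13 had 1 of them. Calls in both replicates were fewer. One site had both STAG2 libraries and neither STAG1 library in quiescent cells, 1 of 25 sites with either, against 4.65% of all such sites; in proliferating cells it was 0 of 34, against 3.09%. It lay in Tfdp1 at chr8:13372914-13373866, with a STAG2 fold of 6.5 and 6.0 in quiescent cells and 10.0 and 6.5 in proliferating cells, where STAG1 had a fold of 6.0 in proliferating replicate 2 alone. The reverse was found once in each state, 1 of 25 and 1 of 34, at the site upstream of Lin37, against 4.16% and 2.24%. With a library left out, the other library of its group decided alone, a looser rule. The count of STAG2 without STAG1 was then 2 in quiescent cells without either STAG1 quiescent library, and 3 in proliferating cells without either STAG2 library or without STAG1 replicate 2. The reverse count in quiescent cells was 4 without STAG1 replicate 1 and 2 without STAG2 replicate 1 or STAG1 replicate 2. In proliferating cells it was 5 without STAG1 replicate 1 and 2 without STAG2 replicate 2.

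Few sites of the 10 genes differed between quiescent and proliferating cells in both replicates. A site was called lost when both proliferating libraries and no quiescent library of an antibody had it, and gained in the reverse case. STAG2 lost 1 of 29 sites, against 5.93% of all its sites, and gained 0, against 0.948%. The lost site lay within Tfdp1 at chr8:13354629-13355498, with a STAG2 fold of 6.5 and 6.0 in the proliferating libraries. STAG1 had a peak there with a fold of 5.5 in quiescent replicate 1 and 4.0 in proliferating replicate 2. STAG1 lost 0 of 30 sites, against 4.14%, and gained 0, against 0.605%. CTCF lost 0 of 64 sites, against 2.33%, and gained 2, against 4.05%. The gained ones lay within E2f4 at chr8:105301665-105302069, with a fold of 5.3 and 7.7 in the quiescent libraries, and within Lin9 at chr1:180650923-180651418, with 6.3 and 6.3.

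These small counts moved with single libraries. Leaving out a library loosens the rule, since the other library then stands for its group, so the counts could mostly only rise. Sites found in CTCF quiescent replicate 2 alone numbered 13, 18.1%, against 10.9% of all sites. Each of them counts as gained when quiescent replicate 1 is left out. Shares over all sites under the loosened rule were not computed. STAG2 lost 5 sites without either proliferating STAG2 library. STAG1 lost 6 without proliferating replicate 1, and lost 1 and gained 2 without quiescent replicate 1. CTCF lost 3 without proliferating replicate 2, 1 without proliferating replicate 1 and 1 without quiescent replicate 2; it gained 17 without quiescent replicate 1, and 4 without quiescent replicate 2 or proliferating replicate 1. When sites were joined over the libraries of 1 antibody, or matched by summits within 300 bp, the minor E2f4 peak described above became a second lost STAG2 site.

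The fold at the occupied starts was set beside that of all genes. For STAG2 both quiescent libraries lay above both proliferating ones at 5 of the 8 starts, E2f4, E2f5, Tfdp1, Lin52 and Lin54, and below them at 0, against 41.1% and 3.80% of the 7812 genes with a start peak in every library. For STAG1 they lay above at 0 and below at 2, Rbl1 and Lin9, against 6.35% and 24.3%. For CTCF they lay above at 0 and below at 4, E2f4, Rbl1, Lin9 and Lin52, against 8.83% and 26.7%. At Lin52 the gap was smaller than the rounding of the printed folds. At E2f4 the peaks within 1 kb of either span end were read, so the libraries were not all compared at the same end. The high-coordinate end alone had 7.2 and 7.8 in quiescent cells and 9.8 and 8.7 in proliferating cells, the same order. The strongest CTCF peak of the low-coordinate site, beyond 1 kb, had the reverse order, 20.0 and 18.0 in quiescent and 9.0 and 16.5 in proliferating cells. Fold enrichment is not on a shared scale across libraries: the median fold of a whole STAG2 list was 9.48 and 9.81 in quiescent cells and 7.98 and 6.99 in proliferating cells. No difference in binding was read from these folds.

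The number of peaks per window passed the test between states at none of the 10 genes. E2f4 averaged 5.33 peaks over the quiescent libraries and 6.67 over the proliferating ones, a difference of -1.33 (exact two-sided permutation of state within antibody, p = 0.0556, adjusted p = 1.0). STAG2 had 4 and 6 peaks in its quiescent E2f4 windows and 6 and 7 in its proliferating ones, and STAG1 had 4 to 5 in quiescent and 6 to 7 in proliferating cells. Tfdp1 averaged 3.5 peaks over the quiescent libraries and 5.33 over the proliferating ones, a difference of -1.83 (exact permutation p = 0.0833, adjusted p = 1.0), with STAG2 at 3 and 3 in quiescent cells and 6 and 6 in proliferating cells. With the 20000 strongest peaks of each list both differences turned, to 0.167 at E2f4 and 0.333 at Tfdp1. Over the other 8 genes the difference lay between -0.167 at Rbl2 and 1.0 at Tfdp2. CTCF quiescent replicate 2 had 9 peaks at Tfdp2, against 3 to 4 in the other CTCF libraries, and without it the Tfdp2 difference was 0.167.

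Of the 10 genes 3 had fewer and 5 more peaks in quiescent cells, with a median difference of 0.167, against 53.9%, 29.9% and -0.167 over the 18364 genes tested. The test allows no p below 0.00926. No gene passed after Benjamini-Hochberg adjustment, and at an unadjusted p under 0.05 there were 421 genes, 2.29%, and 0 of the 10. For STAG2 both quiescent libraries had fewer peaks than both proliferating ones at 2 of 10 genes, Tfdp1 and Lin37, against 16.6% of all genes, and more at 0, against 1.92%. For STAG1 they had fewer at 1, E2f4, against 12.1%, and more at 0, against 1.38%. For CTCF they had fewer at 0, against 6.21%, and more at 2, Rbl1 and Lin52, against 9.39%.

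**Figure D5:**
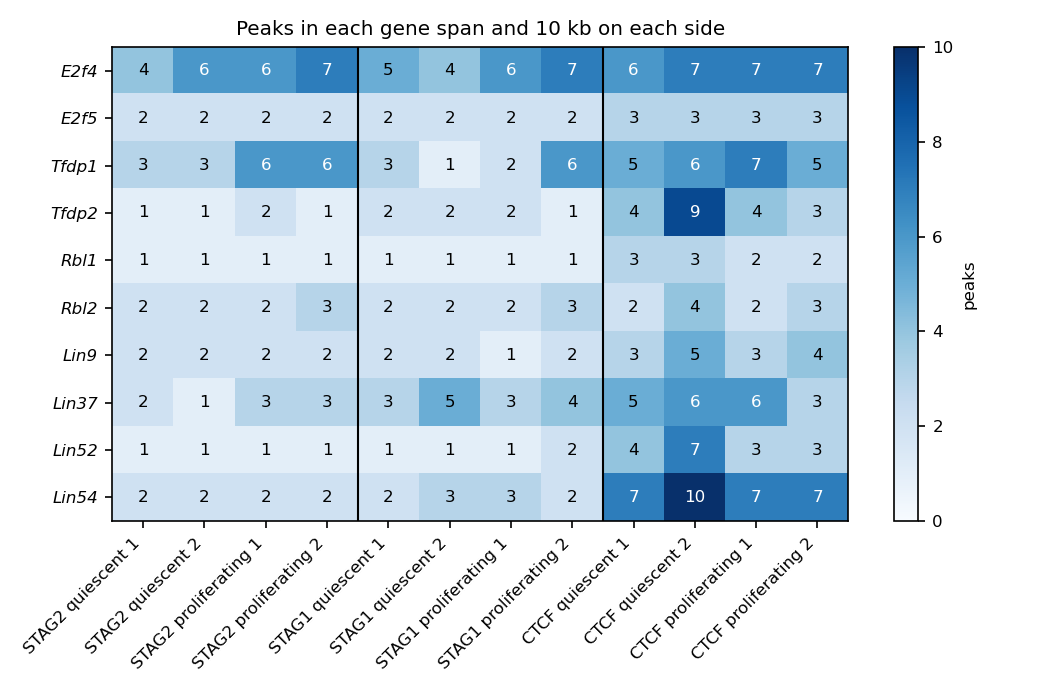
Number of peaks (cell colour and digit) in the span of each gene and 10 kb on each side (rows) in each library (columns, quiescent before proliferating for each antibody). CTCF has more peaks than cohesin at Lin54, Lin52 and Tfdp2, and CTCF quiescent 2 reaches 10 at Lin54 and 9 at Tfdp2.

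The start patterns of single other genes came close to some of these. Likeness was the distance between the 12 percentiles of the highest start peak, 0 for equal patterns. Esyt1 was closest to E2f5, at 8.3, and Pcbd1 to Lin54, at 18.5. Hsd17b1 was closest to Rbl1, at 19.7, Rundc3a to Lin52, at 20.6, Nsun6 to Rbl2, at 22.7, Hook1 to Lin9, at 24.1, and Cmas to E2f4, at 24.2. Tfdp1, with a mean percentile of 53.6 for STAG2 and 8.9 for CTCF, had no pattern nearer than that of Sdhaf1, at 34.2. The near empty Lin37 start was like that of Bbs1, at 0.1, and Tfdp2, with no peak, was given no match.

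Other genes of the pathway were described by the same rule. The shares of all protein-coding genes were 55.0% for STAG2 in each state and 47.1% in quiescent and 48.9% in proliferating cells for STAG1. They were 44.9% in quiescent and 49.1% in proliferating cells for CTCF, and 35.7% in all 12 libraries. Of 5 partner genes, STAG2 occupied 5 in quiescent and 5 in proliferating cells, and STAG1 and CTCF each occupied 3 in quiescent and 4 in proliferating cells. Dyrk1a, the kinase that starts DREAM assembly, and Foxm1 had peaks in all 12 libraries, with a mean percentile of 59.7 and 25.8. Rbbp4, the histone-binding subunit of MuvB, had 11 libraries and Mybl2, which encodes B-MYB, 8. Of 6 E2F genes outside DREAM, 6 were occupied by STAG2 in each state and 4, E2f1, E2f3, E2f6 and E2f7, had peaks in all 12 libraries. Of 12 genes that DREAM is known to repress, STAG2 occupied 11 in each state, STAG1 8 in quiescent and 11 in proliferating cells, and CTCF 8 in quiescent and 9 in proliferating cells. Their range was wide, with a mean percentile of 96.1 at Tk1, thymidine kinase, and 8.4 at Bub1, a kinase of the spindle checkpoint. These lists are described by counts alone and were not tested.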

How the data were processed

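Peaks of STAG2, STAG1 and CTCF were measured by ChIP-seq in quiescent and proliferating NU1 cells, in 12 libraries grouped from the labels; the thirteenth sample, titled input but labelled with IgG, was not analysed here, so which control the folds refer to is open to doubt. Tools named in the submitters' processing notes are MACS2, HOMER, BWA, Picard and bcl2fastq, on build mm10, with no version. The authors deposited 12 separate lists without pooling replicates; each deposited peak carries a fold enrichment (a ratio) and the -log10 of its p-value and of its q-value. The deposited peak names mark library and input as normalised without saying how. The lists give no depth.

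Peaks sharing at least 1 bp were chained into sites over all 12 libraries. Gene spans came from RefSeq on GRCm38.p6 (21887 protein-coding genes); starts came from its promoter table for 17492 genes and otherwise were both span ends. Peak numbers per gene were tested by exact permutation of state within antibody (216 arrangements), adjusted by Benjamini-Hochberg over 18364 genes with a peak; p-values measure the spread between these libraries only. In simulated counts, 4-fold increases were planted in 200 genes with a mean of at least 5 peaks. Differences in list length were left out. Of these 200, 200 had an unadjusted p under 0.05 and 0 an adjusted one. Among the 10 genes only E2f4 averaged that many peaks, so the simulation does not cover the others. Lost, gained and protein-specific sites are calls without a test. Alternatives were the 20000 strongest peaks, a -log10 q of at least 5, summits within 300 bp, no flank, 2 kb windows, pairing by replicate number and leaving out each library. The 10 genes and all lists were chosen with earlier results of these data known; named were all 10 genes, every site at their starts, every called site and the highest ranked site of each. Python 3.11.15, pandas 2.3.3, numpy 2.4.6 and matplotlib 3.10.9 were used.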

Additional observations from a re-analysis of the deposited data

How the results depend on the processing

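Of 458 recomputed counts 395 stayed within 1.5 times. Some could not change, such as the starts occupied by 1 protein when a library of another was left out. They also include the count of all genes at an adjusted p under 0.05, which is read below. The 395 are therefore no measure of stability. Of 160 single-gene differences 154 did not reverse in sign. Part of these were fixed in advance, since a difference of 0 (E2f5 and Lin37) cannot reverse and the replicate block keeps each difference. Lin37 ranged from -0.5 to 0.5 over omitted libraries. Where a value below moved, the cause was not tested. No alternative, among them each omitted library, gave a gene with an adjusted p under 0.05. The main test allows no p below 0.00926 over 18364 genes. A gene could pass only along with very many others, so this outcome is no measure of stability. Replicate numbers did not pair the libraries (correlation of deviations 0.03 for STAG2, -0.012 for STAG1 and -0.093 for CTCF); the replicate block gave 0 genes at an adjusted p under 0.05 and 143 at an unadjusted one, and p = 0.0625 for E2f4, with no p below 0.03125 possible.

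With the 20000 strongest peaks the difference in peak number turned to 0.167 for E2f4, 0.333 for Tfdp1, -0.167 for Rbl1 and -0.333 for Lin54. With a -log10 q of at least 5 it turned to 0.333 for Rbl2, and over omitted libraries its range was -0.5 to 0.167, the 0.167 without CTCF quiescent replicate 1.

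With the 20000 strongest peaks the windows held 158 peaks and 27 sites, 4 in every library and 8 with CTCF alone. Lost and gained STAG2 sites were then 0 and 1, gained STAG1 sites 1 and gained CTCF sites 0. Sites with CTCF were 4 for STAG2 and 5 for STAG1 in quiescent cells and 8 and 7 in proliferating cells; sites without it were 6 and 4 in quiescent and 4 and 2 in proliferating cells. STAG2 without STAG1 was found at 2 in proliferating cells. Starts occupied by STAG1 were 5 and 5, by CTCF 1 and 3, and in all libraries 1. With no flank 243 peaks were left.

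With a -log10 q of at least 5, STAG2 sites without CTCF were 2 in each state and STAG2 without STAG1 in proliferating cells 1. With summits within 300 bp there were 2 lost STAG2, 1 lost and 1 gained STAG1 and 4 gained CTCF sites; STAG1 without STAG2 was 3 in quiescent cells, STAG2 without STAG1 1 in proliferating cells, and STAG sites without CTCF 2 for each protein in proliferating cells. Sites joined per antibody gave 2 lost STAG2 sites.

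With a library left out, the other library of its group decided alone. Counts of sites lost, gained or without another protein could then mostly only rise. Leaving out each library in turn gave 1 to 5 lost and 0 to 0 gained STAG2 sites, 0 to 6 lost and 0 to 2 gained STAG1 sites, and 0 to 3 lost and 2 to 17 gained CTCF sites. STAG2 sites without CTCF ranged from 1 to 2 in quiescent and 1 to 4 in proliferating cells, and STAG1 sites without CTCF from 1 to 5 in proliferating cells. STAG2 without STAG1 ranged from 1 to 2 in quiescent and 0 to 3 in proliferating cells, the reverse from 1 to 4 in quiescent and 1 to 5 in proliferating cells, and sites with CTCF alone from 23 to 38. Peak lists without read totals do not show whether a missing peak was absent or under the caller's threshold.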

Other observations

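Marker genes of urothelium and of other cell types ranged from no start peak to some of the highest ranked ones. The lists were not tested against each other. A start peak in all 12 libraries was found at 35.7% of all protein-coding genes. Of 10 urothelial genes 5 had peaks in all 12 libraries, among them Upk2, a uroplakin of the urothelial plaque, with a mean percentile of 96.8, and Gata3, a luminal transcription factor, with 96.6. Upk1b and Trp63 had none. Of 4 fibroblast genes 2 had peaks in all 12 libraries, with a mean percentile of 94.6 at Col1a1, a collagen chain. Of 3 immune genes 2 did, with 96.5 at Spi1, a myeloid transcription factor, while Ptprc, the leukocyte marker CD45, had none.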
